A study of Homo sapiens with 12 samples.

Results

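The comparison described here is that of RAS-induced cells carrying an shRNA against XPO7, shXPO7_3, with RAS-induced cells carrying the control vector. It was chosen by the labels of the samples, 3 libraries of shXPO7_3/4OHT against 3 of vector/4OHT, and so takes 6 of the 12 RNA-seq libraries of the series. The cells were IMR90 ER:RAS. IMR90 is a fibroblast line of human lung, and ER:RAS is a fusion of RAS with the hormone-sensing domain of the estrogen receptor that 4-hydroxytamoxifen (4OHT) turns on. Both groups were at passage 13 and had received 100 nM 4OHT, with RNA taken 5 days after induction, so that they differ, as far as the labels say, in the shRNA alone. The other 6 libraries were 3 of vector without 4OHT, at the same passage and day, and 3 of a second shRNA under 4OHT, written shXPO7_5 in the labels and taken to be shXPO7_X5. Whether T, A and B of a group were separate cultures is not stated, and p-values therefore measure the spread between libraries, which may be technical, and RAS is driven here by a fusion protein rather than by a mutation of the cells' own gene.

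XPO7 (exportin 7) is a transport receptor of the importin-β family. Such receptors bind their cargo and the small GTPase Ran and carry proteins or RNA through the nuclear pore, and exportin 7 is known to move cargo in both directions. Sustained RAS signalling drives normal fibroblasts into oncogene-induced senescence (OIS), a lasting cell-cycle arrest held by inhibitors of cyclin-dependent kinases such as p21CIP1 and p16INK4a and accompanied by the secretion of cytokines and proteases, the senescence-associated secretory phenotype (SASP). The question the comparison addresses is which transcripts differ when XPO7 is depleted in cells entering OIS.

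The 6 libraries held 28534141 to 60397769 counted reads. Of 62069 genes, 15284 passed edgeR's filter for expression and were tested in a quasi-likelihood model fitted to all 12 libraries. Genes with an adjusted p (Benjamini-Hochberg) below 0.05 are referred to as called, and levels are given in CPM (counts scaled to the TMM-normalised library size). Fibroblast markers were abundant: 12 of 12 fibroblast markers passed the filter, with summed levels of 38312 to 47620 CPM in shXPO7_3/4OHT and 40007 to 46264 CPM in vector/4OHT. Of 12 epithelial markers 6 passed (41.6 to 51.8 CPM in sum over the 6 libraries), of 10 endothelial markers 5 (18.2 to 20.3 CPM in shXPO7_3/4OHT and 15.2 to 17.4 CPM in vector/4OHT) and of 10 leukocyte markers 2 (1.06 to 1.28 CPM), and PECAM1, CDH5, CD3E, MS4A1 and TYROBP had 0 counts in all 6.

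Library T of shXPO7_3/4OHT stood apart from the others. Over genes with at least 10 counts, the chi-square per gene between libraries of 1 group was 41.6 for its pair with A and 46.5 for its pair with B, against 4.27 for A with B and 4.33 to 9.73 among the vector/4OHT libraries. The difference ran with the GC content of transcripts. GC content was known for 14864 genes. Across these genes, which do not count as replicates, Spearman's rho of GC content with each library's log2 ratio to the mean of vector/4OHT was 0.56 in T, -0.34 in A and -0.23 in B. For the vector/4OHT libraries, each set against the other two, it was -0.17 in T, -0.20 in A and 0.30 in B. From the lowest to the highest quintile of GC content, the median log2 ratio rose from -0.32 to 0.15 in library T of shXPO7_3/4OHT, while it fell from 0.10 to -0.089 in A and from 0.11 to -0.017 in B. In the fitted fold changes the trends nearly cancelled, with medians of -0.020 in the lowest and 0.016 in the highest quintile. A smooth trend on GC content and length was therefore also removed from each library as an offset, after which all 6 correlations were between -0.028 and 0.027.

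**Figure D1:**
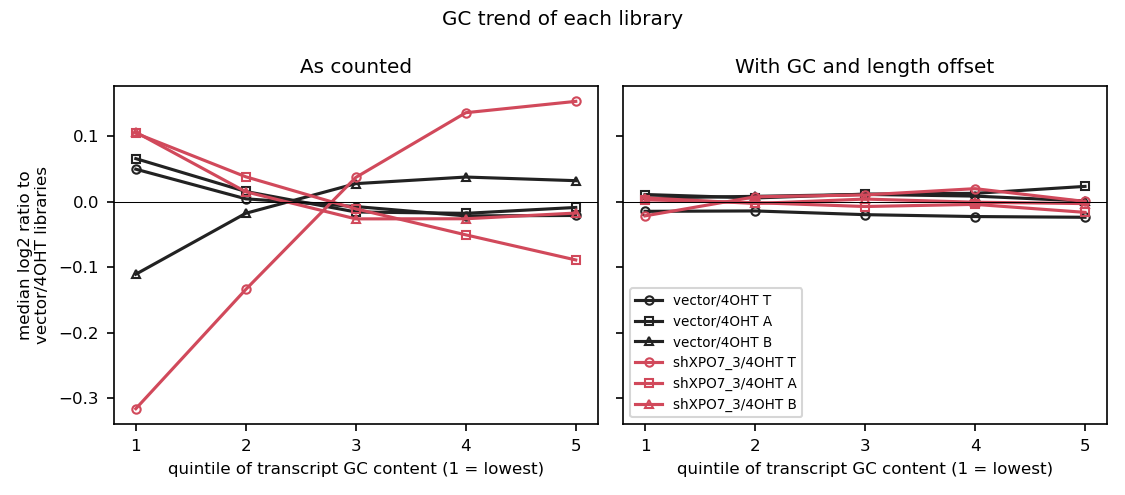
Median log2 ratio of each library to the vector/4OHT libraries (y axis) in quintiles of the genes by transcript GC content (x axis, 1 is the lowest), before (left) and after (right) the GC content and length offset. Each line is 1 library. Library T of shXPO7_3/4OHT climbs from -0.32 to 0.15 before the offset, and all 6 lines lie near 0 after it.

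XPO7 was strongly depleted. Its level was 127, 144 and 139 CPM in libraries T, A and B of vector/4OHT and 26.4, 28.7 and 27.9 CPM in those of shXPO7_3/4OHT. The knockdown libraries, T included, lay close together and far below every vector library. Vector/4OHT averaged 137 ± 8.81 CPM (SD, n = 3), and the knockdown kept 20.3% of that, with 27.7 ± 1.14 CPM (SD, n = 3). On the log2 scale it fell by 2.30 (edgeR adjusted p = 1.24e-08), and the 95% interval ran from -2.46 to -2.14. An exact two-sided permutation test of the 6 values gave p = 0.1, the smallest that 3 against 3 allow. The gene (ENSG00000130227) lies on chromosome 8, from 21919671 to 22006585 on the plus strand of GRCh38 in GENCODE release 29. In this bulk RNA, fewer cells with a transcript and less of it in each cell cannot be told apart, here and for every gene below. RANBP17, the closest relative of exportin 7, was at 9.84, 9.68 and 9.34 CPM in vector/4OHT and 7.66, 9.24 and 9.42 CPM in shXPO7_3/4OHT, overlapping between the groups (log2 fold change -0.13, 95% confidence interval -0.46 to 0.20).

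Across the other nuclear transport genes, no further call was made. The list of importins, exportins and Ran-cycle genes held 34 genes, of which 33 were tested; KPNA7 had 1 to 4 counts per library. XPO7 was the 1 gene called, and the median log2 fold change was -0.0060, beside -0.0031 for all genes. KPNB1, importin-β itself, had 568, 585 and 585 CPM in vector/4OHT and 471, 527 and 527 CPM in shXPO7_3/4OHT (log2 fold change -0.19, edgeR adjusted p = 0.443). KPNA4, an importin-α that brings cargo to it, had 276, 283 and 267 CPM against 205, 252 and 255 CPM (-0.22, adjusted p = 0.914 by the same test). In both the groups did not overlap, and library T of shXPO7_3/4OHT was the lowest. HAT1, a histone acetyltransferase, ranged from 33.3 CPM in T to 62.3 CPM in A within shXPO7_3/4OHT and from 48.5 to 54.8 CPM in vector/4OHT, so that its fold change of 0.020 on the log2 scale had an interval from -0.56 to 0.60.

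Beyond XPO7 the differences were few and small. edgeR called 19 genes, 0.124% of those tested, 14 higher (0.0916%) and 5 lower (0.0327%) in shXPO7_3/4OHT. All 19 are protein coding. For each of the 18 besides XPO7 the 2 groups of libraries did not overlap, a pattern that 7.46% of all genes showed upward and 7.15% downward. Their log2 fold changes had a median size of 0.60 and ran from 0.38 to 1.04 in size, and 95.5% of all genes tested were within 0.5. At an unadjusted p under 0.05 there were 979 genes, 6.41% of those tested, with 3.54% higher and 2.87% lower. The calls rested on all 6 libraries and on the spread shared with the other 6. With any 1 of the 6 left out, XPO7 was the 1 gene called, and a fit to the 6 libraries only called 2, XPO7 and CYGB, although all 19 kept their sign. With the GC content and length offset the same 19 were called among 304 (1.99%), and with the offset and 1 library left out 17 to 19 of them were. Each of the 18 was called in 6 to 10 of 16 other fits, and XPO7 in 16 of 16.

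**Figure D2:**
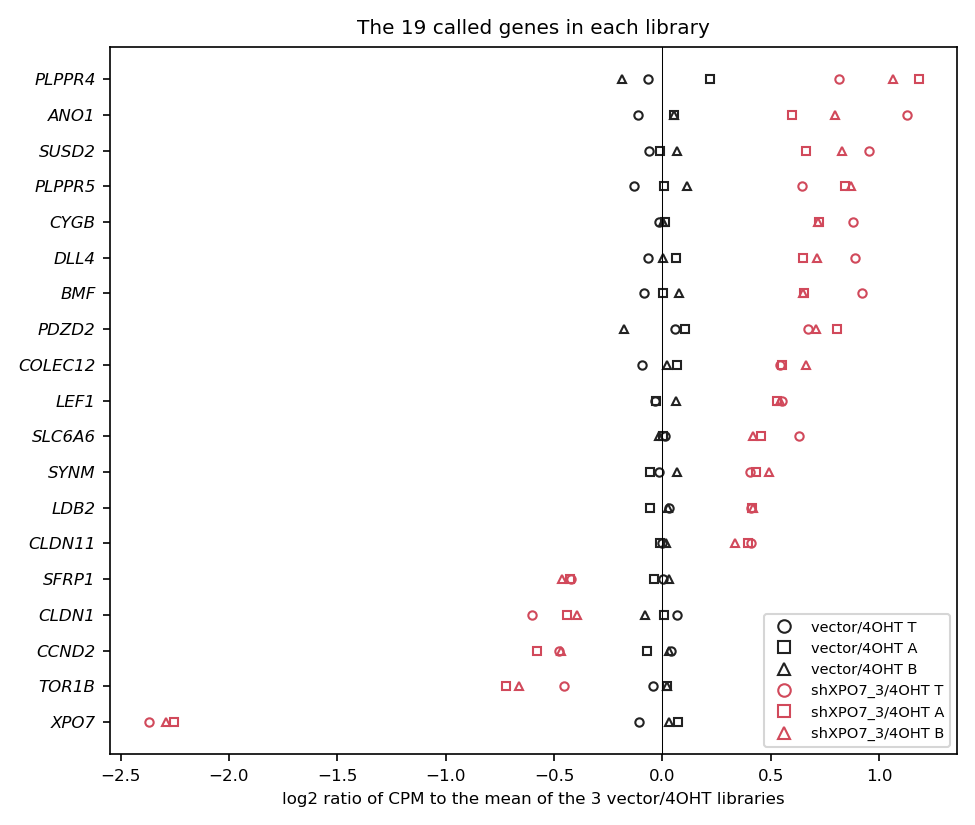
The 19 called genes in each library, as the log2 ratio of CPM to the mean of the 3 vector/4OHT libraries (x axis). Each point is 1 library. The groups do not overlap in any of the 19, and XPO7, with a fitted log2 fold change of -2.30, lies furthest from 0.

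DLL4, LEF1 and SFRP1 were among the genes called. DLL4 encodes a ligand that a cell presents to Notch receptors on its neighbours. It was at 9.10, 9.96 and 9.56 CPM in vector/4OHT and 17.7, 14.97 and 15.7 CPM in shXPO7_3/4OHT, with T the highest. It rose 1.69-fold (log2 fold change 0.76, standard error 0.105, edgeR adjusted p = 0.0243), and by 0.68 without library T. LEF1, a DNA-binding partner of β-catenin at Wnt target genes, was at 19.5, 19.6 and 20.9 CPM against 29.3, 28.9 and 29.1 CPM. The 3 knockdown libraries were nearly level and above every vector library, for a rise of 0.54 (standard error 0.0816, adjusted p = 0.0371). SFRP1, a secreted inhibitor that binds Wnt ligands, moved the other way, from 296, 288 and 302 CPM to 221, 219.8 and 214 CPM. Its fall of 0.44 (standard error 0.0601, adjusted p = 0.0243) left 73.9% of the control level and was -0.45 without T. LDB2, a cofactor that bridges LIM-domain transcription factors, rose by 0.41 (adjusted p = 0.0371), from 30.2, 28.5 and 30.2 CPM to 39.4, 39.4 and 39.6 CPM. Among Notch targets, HES1, a repressor switched on by the activated receptor, had 17.7, 16.3 and 16.8 CPM in vector/4OHT and 22.0, 23.5 and 20.8 CPM in shXPO7_3/4OHT. Those groups did not overlap, and the difference of 0.38 was called with the offset (adjusted p = 0.00831) and not without it (0.217).

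PLPPR4 and PLPPR5, which encode phospholipid phosphatase-related membrane proteins known from growing nerve fibres, were both called. PLPPR4 showed the largest rise of the 14: it had 5.93, 7.23 and 5.45 CPM in vector/4OHT and 10.9, 14.1 and 12.98 CPM in shXPO7_3/4OHT, with T the lowest of the knockdown libraries. The fitted rise was 2.05-fold (log2 fold change 1.04, standard error 0.165, edgeR adjusted p = 0.0421). The knockdown libraries averaged 12.6 ± 1.61 CPM (SD, n = 3), beside 12.8 ± 2.25 CPM (SD, n = 3) in the vector without 4OHT. PLPPR5 had 3.06, 3.37 and 3.63 CPM against 5.24, 6.01 and 6.13 CPM, again with T lowest, and rose by 0.79 (standard error 0.119, adjusted p = 0.0371). In RefSeq on GRCh38.p14 the genes are neighbours on chromosome 1. PLPPR5 runs from 98890245 to 99005786 on the minus strand and PLPPR4 from 99262924 to 99309584 on the plus strand, and the 257.138 kb between them hold no whole gene of that annotation.

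Promoters are shown for these neighbours and for the Notch ligand and Wnt factor above, since all 4 rose together and the study follows TCF3, a factor that binds E-boxes. Each is 300 bases from RefSeq (GRCh38.p14), 250 before and 50 after a transcript start, written 5′ to 3′ on the gene's strand with each E-box (CANNTG) in capitals. They are PLPPR5 at chr1:99004812-99005111 (minus), PLPPR4 at chr1:99264242-99264541 (plus), LEF1 at chr4:108166252-108166551 (minus) and DLL4 at chr15:40929090-40929389 (plus).
PLPPR5: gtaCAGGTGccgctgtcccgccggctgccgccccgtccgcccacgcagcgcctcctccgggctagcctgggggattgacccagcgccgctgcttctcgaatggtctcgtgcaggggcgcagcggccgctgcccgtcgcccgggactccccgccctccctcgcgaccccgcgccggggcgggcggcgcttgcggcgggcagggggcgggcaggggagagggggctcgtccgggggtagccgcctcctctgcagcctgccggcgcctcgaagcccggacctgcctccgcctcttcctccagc
PLPPR4: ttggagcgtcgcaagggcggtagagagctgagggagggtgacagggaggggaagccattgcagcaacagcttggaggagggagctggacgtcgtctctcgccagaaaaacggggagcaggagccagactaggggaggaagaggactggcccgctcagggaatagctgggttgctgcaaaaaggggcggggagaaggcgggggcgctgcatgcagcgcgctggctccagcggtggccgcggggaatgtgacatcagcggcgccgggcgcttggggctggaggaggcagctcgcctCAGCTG
LEF1: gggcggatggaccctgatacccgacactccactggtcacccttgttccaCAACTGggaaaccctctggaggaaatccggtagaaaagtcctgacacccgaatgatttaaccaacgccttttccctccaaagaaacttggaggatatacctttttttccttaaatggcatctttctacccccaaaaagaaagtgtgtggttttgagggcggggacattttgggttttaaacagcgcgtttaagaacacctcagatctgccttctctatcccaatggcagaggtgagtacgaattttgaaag
DLL4: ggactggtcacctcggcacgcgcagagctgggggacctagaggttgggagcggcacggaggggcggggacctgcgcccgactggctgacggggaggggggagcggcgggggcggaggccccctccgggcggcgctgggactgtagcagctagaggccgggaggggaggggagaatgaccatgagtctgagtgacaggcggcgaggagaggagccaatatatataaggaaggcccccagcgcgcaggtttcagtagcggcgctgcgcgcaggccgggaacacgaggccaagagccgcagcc
That of PLPPR5 held CAGGTG. The E-box of PLPPR4 was CAGCTG. In LEF1 it was CAACTG, and DLL4 held none. Of the 19 called genes 10 had an entry, with 12 promoters in all. CANNTG, which reads the same on both strands, was in 8 of the 12, where 68.7% of the 35116 promoters of this length hold it. CAGCTG, a part of those matches, was in 2 of 12 (17.9% of all), and CAGGTG on either strand in 3 of 12 (20.6% of all). A match describes these letters in this window and shows no binding.

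Among called genes of metabolism and membrane transport, 3 rose. CYGB encodes cytoglobin, a haem protein of fibroblasts that binds oxygen and handles nitric oxide. It was at 37.1, 37.7 and 37.5 CPM in vector/4OHT and 68.9, 61.7 and 61.5 CPM in shXPO7_3/4OHT, where library T was the highest. The rise was 1.71-fold (log2 fold change 0.77, standard error 0.100, edgeR adjusted p = 0.0221), and 0.71 without T. ANO1, a calcium-activated chloride channel, went from 5.06, 5.67 and 5.67 CPM to 11.96, 8.27 and 9.50 CPM. Of the 18 genes it was the one that library T moved most: it rose by 0.86 (standard error 0.133, adjusted p = 0.0376) with T and by 0.70 without. SLC6A6, the taurine transporter, had 71.2, 70.8 and 69.9 CPM against 109, 96.7 and 94.5 CPM, a rise of 0.50 (adjusted p = 0.0428), again highest in T. Few other members of these families could be tested. CYGB was the 1 globin of its list that was tested. HBA1, HBA2, HBB, HBG1, HBG2 and NGB had 0 or 1 counts in each of the 6 libraries. Of the 5 globin and haem genes tested CYGB was called, and HMOX1, which breaks down haem, was called with the offset (0.36, adjusted p = 0.0238) and not with the offset when library T was left out (adjusted p = 0.0874). It had 34.6, 35.2 and 35.2 CPM in vector/4OHT and 53.7, 38.7 and 44.8 CPM in shXPO7_3/4OHT. Of 10 anoctamins 6 were tested, and ANO1 was the 1 called in either fit. Over all genes 0.124% were called without the offset and 1.99% with it.

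BMF rose and CCND2 fell. BMF, a BH3-only protein that promotes apoptosis by binding BCL2-family survival factors, was at 16.8, 17.9 and 18.8 CPM in vector/4OHT and 33.7, 27.99 and 27.9 CPM in shXPO7_3/4OHT. It rose by 0.74 (standard error 0.0967, edgeR adjusted p = 0.0221), with T the highest, and by 0.64 without T. CCND2, the D-type cyclin that activates CDK4 and CDK6, fell by 0.51 (standard error 0.0797, adjusted p = 0.0409) to 70.4% of the control. Its levels were 27.3, 25.3 and 27.2 CPM against 19.1, 17.8 and 19.2 CPM, with no library apart, and the vector without 4OHT had 11.95 ± 0.684 CPM (SD, n = 3).

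The remaining calls were mostly genes of the cell surface, junctions and cytoskeleton. CLDN11 and CLDN1 encode claudins, the strands of tight junctions, and moved oppositely. CLDN11 rose by 0.38 (standard error 0.0625, edgeR adjusted p = 0.0489), from 31.5, 31.3 and 31.9 CPM to 41.8, 41.5 and 39.8 CPM. CLDN1 fell by 0.48 (standard error 0.0790, adjusted p = 0.0489), from 262, 251 and 236 CPM to 165, 184 and 190.1 CPM, lowest in T. SYNM, an intermediate filament protein, rose by 0.44 (adjusted p = 0.0371), with 16.5, 15.9 and 17.4 CPM against 22.0, 22.4 and 23.4 CPM. COLEC12, a scavenger receptor with a collagen-like stalk, rose by 0.59 (adjusted p = 0.0243), with 12.4, 13.9 and 13.5 CPM against 19.3, 19.4 and 21.0 CPM. In both SYNM and COLEC12 library T did not stand out. PDZD2, a multi-PDZ scaffold protein, had 9.37, 9.68 and 7.97 CPM in vector/4OHT and 14.3, 15.7 and 14.7 CPM in shXPO7_3/4OHT, a rise of 0.73 (adjusted p = 0.0221). SUSD2, a membrane protein with a sushi domain, had 4.07, 4.22 and 4.46 CPM against 8.23, 6.73 and 7.55 CPM, a rise of 0.82 (adjusted p = 0.0243). TOR1B, a torsin ATPase of the endoplasmic reticulum and nuclear envelope, went from 61.3, 64.2 and 64.1 CPM to 46.2, 38.3 and 39.9 CPM. It fell by 0.61 (standard error 0.100, adjusted p = 0.0489), and was at -0.70 without T, whose level was the highest of the 3. Of the 18 genes, 14 were also called between vector/4OHT and the vector without 4OHT, where 50.9% of all genes were called. Both contrasts use the same vector/4OHT libraries, with opposite sign, so their directions are not independent. Of these 14 genes, 9 were higher and 5 lower in vector/4OHT. PDZD2, LEF1, PLPPR5, CYGB, COLEC12 and SUSD2 were higher there and rose further with shXPO7_3, and SFRP1 was lower and fell further. ANO1, CLDN11, PLPPR4 and LDB2 were lower there and rose with shXPO7_3, and CLDN1, CCND2 and TOR1B were higher and fell.

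**Figure D3:**
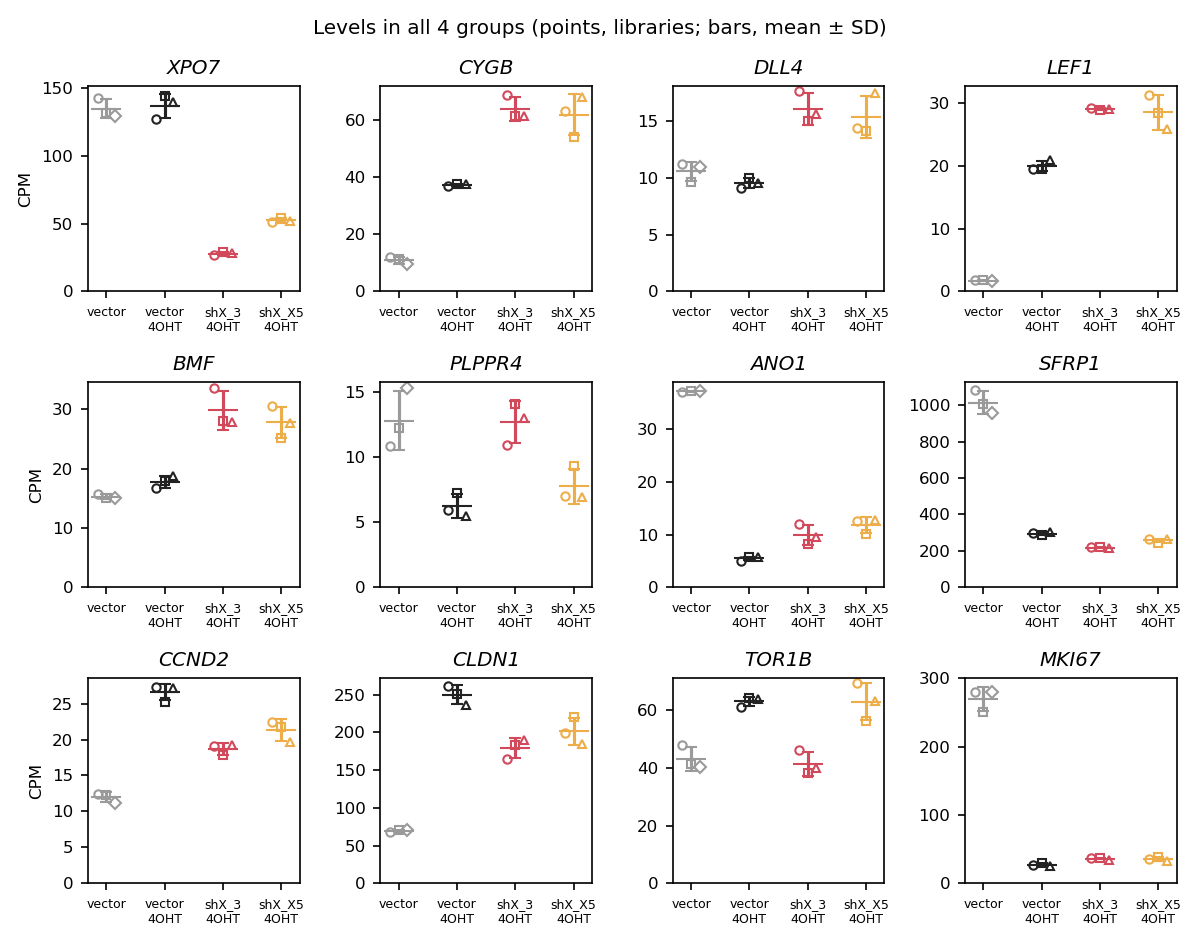
Levels of 12 genes in CPM (y axes, from 0) in vector, vector/4OHT, shXPO7_3/4OHT (shX_3) and shXPO7_X5/4OHT (shX_X5). Points are libraries (circle T, square A, triangle B, diamond C), lines the mean and bars ± SD of 3 libraries. TOR1B is lower with shXPO7_3 (41.5 CPM) than with shXPO7_X5 (63.1 CPM), while CYGB is at 64.0 and 62.0 CPM.

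Set beside the second shRNA, the called genes had the following values, all without the offset. The GC trend of the shXPO7_X5 libraries was not examined here. Both comparisons share the vector/4OHT libraries, so likeness between them is no independent support. The second shRNA lowered XPO7 less, to 52.2 ± 1.62 CPM (SD, n = 3), and edgeR called 90 genes with it (0.589%). With shXPO7_3 and shXPO7_X5, the log2 fold changes were 0.77 and 0.73 for CYGB, 0.76 and 0.69 for DLL4, 0.74 and 0.64 for BMF, and 0.54 and 0.51 for LEF1. They were 0.86 and 1.11 for ANO1, 0.82 and 1.1801 for SUSD2, 0.41 and 0.49 for LDB2, 0.38 and 0.50 for CLDN11 and 0.59 and 0.42 for COLEC12. The pairs were 0.79 and 0.46 for PLPPR5, 0.73 and 0.41 for PDZD2, 0.50 and 0.36 for SLC6A6, 0.44 and 0.18 for SYNM, -0.51 and -0.32 for CCND2, -0.48 and -0.31 for CLDN1 and -0.44 and -0.20 for SFRP1. Those of PLPPR4 were 1.04 and 0.33, and those of TOR1B were -0.61 and -0.0029. In the direct contrast of the shRNAs, which does not use the vector, edgeR called 2 genes (0.0131%), XPO7 and PTGS2. The differences of PLPPR4 (0.71, adjusted p = 0.346) and TOR1B (-0.61, adjusted p = 0.233) were not called.

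With the GC content and length offset, 304 genes were called, 192 higher (1.26%) and 112 lower (0.733%). All 304 had the same sign without it, and 250 of them changed by less than 0.5 on the log2 scale. The 10 higher and 10 lower genes with the smallest adjusted p among the 285 called with the offset alone were named after the data were seen. Of the higher ones, PDGFRB, the PDGF receptor β of mesenchymal cells, had 218, 213 and 222 CPM in vector/4OHT and 352, 284 and 296 CPM in shXPO7_3/4OHT. Its difference was 0.49 with the offset (edgeR adjusted p = 0.000265) and 0.52 without it (0.0834), and library T was the highest. LRRC32, which holds latent TGF-β on the cell surface, had 22.1, 23.3 and 21.4 CPM against 38.5, 31.2 and 31.1 CPM (0.56 with the offset, adjusted p = 0.000719). ADM, the vasodilator peptide adrenomedullin, rose by 0.41 and BGN, the matrix proteoglycan biglycan, by 0.31 with the offset (both adjusted p = 0.00103). Genes of nerve and vessel guidance were among them too, with rises of 0.43 for UNC5B, a netrin receptor, and 0.35 for SEMA3F, a secreted semaphorin. ITGA1, the collagen-binding integrin α1, had 281, 286 and 241 CPM against 300.3, 425 and 426 CPM. There library T lay close to the vector, and the difference of 0.51 without the offset (adjusted p = 0.746) was 0.54 with it (0.00257). TMEM119, KCNH6 and INSIG1 rose by 0.62, 0.67 and 0.32 with the offset.

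The lower genes called with the offset alone also held adhesion and matrix proteins. L1CAM, a neural cell adhesion molecule, had 37.1, 34.3 and 35.9 CPM in vector/4OHT and 27.7, 20.3 and 23.1 CPM in shXPO7_3/4OHT, a log2 fold change of -0.62 with the offset (edgeR adjusted p = 0.00053), against -0.59 without it (0.0856). ITGA6, the laminin-binding integrin α6, had 155, 158 and 151 CPM against 103, 130.4 and 130.2 CPM (-0.32 with the offset, adjusted p = 0.0013), with T the lowest. ITGBL1 and FBLN2, an integrin β-like and a fibulin matrix protein, were at -0.41 and -0.42 with the offset. GAS6, the ligand of the TAM receptors AXL, TYRO3 and MERTK, had 145, 143 and 151 CPM against 129, 105 and 117 CPM (-0.35, adjusted p = 0.00341). RASSF1, a RAS-association tumor suppressor, was at -0.47, NIPAL3 at -0.34, FSTL3, an activin antagonist, at -0.32, QSOX1, a secreted thiol oxidase, at -0.25 and TMEM129 at -0.36. In all 20 named genes the libraries of the groups did not overlap, as in 7.46% of all genes upward and 7.15% downward. With the offset applied, 10.3% and 10.5% of all genes did not overlap.

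**Figure D4:**
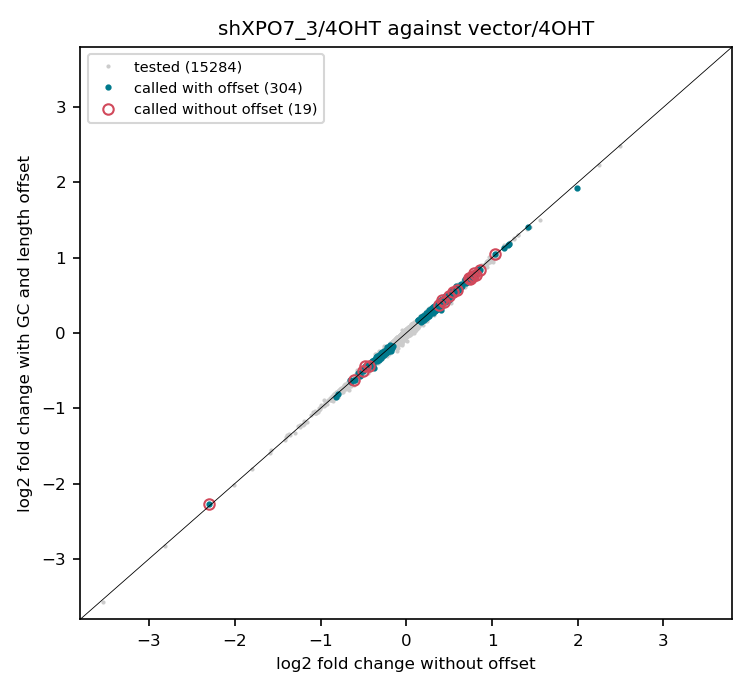
Log2 fold change of shXPO7_3/4OHT against vector/4OHT for the 15284 genes tested, without (x axis) and with (y axis) the GC content and length offset. Teal points are the 304 genes called with the offset and rings the 19 called without it. The points follow the diagonal, on which both values are equal, and XPO7 lies at -2.30 and -2.27.

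Among the offset calls 7 changed by at least 1 on the log2 scale. Besides XPO7 and PLPPR4 they were HEYL, a Notch-target repressor, at 1.93, KDR, the VEGF receptor 2, at 1.41, AFAP1L2 at 1.182, NKD2, an inhibitor of Wnt signalling, at 1.17 and CARMN, a long noncoding RNA of smooth muscle, at 1.12. These 5 were named after their values were seen. All were low. HEYL had 0.328, 0.284 and 0.666 CPM in vector/4OHT and 2.52, 1.60 and 1.30 CPM in shXPO7_3/4OHT, and KDR had 0.219, 0.354 and 0.444 CPM against 1.10, 0.906 and 0.809 CPM. KDR is also on the endothelial list. Of its 10 members 5 were tested, and all 5 were higher, as were 7478 of the 15284 genes tested. KDR was the 1 of them called with the offset, which called 1.26% of all genes higher. PECAM1 and CDH5, which define endothelial cells, were at 0 counts in all 6 libraries. With the offset and without library T, neither HEYL nor KDR was called.

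Cell-cycle genes lay slightly above the control. In the G2/M list 49 of 54 genes were higher, with a median log2 fold change of 0.19, beside -0.0031 over all genes tested. The groups did not overlap in 17 of the 54, all higher, a pattern that 7.46% of all genes showed upward. edgeR called 0 of the 54 without the offset. With it 9 were called, all higher, beside 1.26% of all genes. At an unadjusted p under 0.05 there were 13, all higher, beside 3.54% of all genes. MKI67, the proliferation marker Ki-67, had 26.8, 30.3 and 25.5 CPM in vector/4OHT and 36.4, 36.5 and 34.7 CPM in shXPO7_3/4OHT. That difference of 0.38 was called with the offset (edgeR adjusted p = 0.0223) and not without it (0.167), and the vector without 4OHT had 270.2 ± 17.3 CPM (SD, n = 3). BIRC5, survivin, had 6.67, 6.95 and 8.76 CPM against 13.01, 10.99 and 9.47 CPM (0.57, adjusted p = 0.24), and CDC20, an activator of the anaphase-promoting complex, 9.92, 9.995 and 11.7 CPM against 18.1, 13.9 and 12.8 CPM (0.50, adjusted p = 0.293). The other 6 called with the offset, all higher, were UBE2C, AURKB, BUB1, KIF2C, CDCA8 and GAS2L3, which act in mitosis. With the offset and without library T, 3 of the 54 were called, MKI67 not among them (adjusted p = 0.0688). The list's median was 0.109 without library A of shXPO7_3/4OHT and 0.25 without T. Library T differed from A and B here: the median over the list was 0.013 in T, 0.28 in A and 0.24 in B. After the offset it was 0.15, 0.27 and 0.19. The list's transcripts had a median GC content of 43.8%, against 49.3% for all genes.

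The S phase list leaned the same way at smaller size, with 32 of 42 genes higher and a median of 0.12. Its medians were -0.016 in T, 0.15 in A and 0.11 in B, and the fitted median was 0.0636 without library A of shXPO7_3/4OHT, 0.0685 without B and 0.0714 without library T of vector/4OHT. No member was called without the offset, with 7 at an unadjusted p under 0.05, all higher, beside 3.54% of all genes. RRM2, a subunit of ribonucleotide reductase, was the 1 member called with the offset (0.44, edgeR adjusted p = 0.0149). That was 2.38% of the list, beside 1.99% of all genes. RRM2 had 30.1, 30.02 and 31.5 CPM against 42.5, 41.6 and 37.8 CPM. With the offset and without T its adjusted p in edgeR was 0.05005, and 0 of the 42 were called. In OIS, where edgeR called 50.9% of genes, both lists were far lower than in the vector without 4OHT, by medians of -2.54 and -1.53 in vector/4OHT. LMNB1, the lamin whose loss marks senescence, had 9.43, 9.14 and 9.18 CPM in vector/4OHT and 11.7, 12.6 and 10.4 CPM in shXPO7_3/4OHT, where the vector without 4OHT had 78.0 ± 3.37 CPM (SD, n = 3). Its difference of 0.32 was not called (adjusted p = 0.26, and 0.0676 with the offset).

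The inhibitors that hold the arrest were not called, with or without the offset. CDKN1A, which encodes p21CIP1, had 1101, 1116 and 1194 CPM in vector/4OHT and 1165, 998 and 1046 CPM in shXPO7_3/4OHT. The groups overlapped through library T, while A and B lay below every vector library. The log2 fold change was -0.088 (95% confidence interval -0.29 to 0.12), and -0.16 without T. With the offset it was -0.104 (standard error 0.0345, edgeR adjusted p = 0.173). With the offset and without T it was -0.103 (adjusted p = 0.336). CDKN2A, which encodes p16INK4a and ARF, was at 51.2 ± 1.89 and 53.9 ± 2.97 CPM (SD, n = 3), a difference of 0.073 with an interval from -0.16 to 0.30. CDKN2B, which encodes p15INK4b, was at 315 ± 5.72 and 297 ± 22.9 CPM (SD, n = 3), -0.083 with an interval from -0.27 to 0.10. CDKN2C, a further inhibitor, had 1.94, 2.16 and 1.90 CPM in vector/4OHT and 2.83, 3.02 and 2.34 CPM in shXPO7_3/4OHT. Those groups did not overlap, as in 7.46% of all genes upward. Its difference of 0.44 had an interval from 0.098 to 0.79 and was not called (edgeR adjusted p = 0.548, and 0.129 with the offset). The vector without 4OHT had 18.7 ± 1.12 CPM (SD, n = 3). In the list of cell-cycle inhibitors and RB-pathway genes 10 of 20 were higher, and CCND2 was the 1 called.

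The median of the SASP list stayed close to the control, while members were called in both directions with the offset. Of 39 members tested 26 were higher, with a median of 0.068 and medians of 0.089, 0.084 and 0.064 in T, A and B, where induction itself had a median of 3.50. None was called without the offset, with 8 at an unadjusted p under 0.05, beside 6.41% of all genes. The groups did not overlap in 8 that were higher and 4 that were lower, beside 7.46% and 7.15% of all genes. With the offset, which called 1.99% of all genes, 4 were higher, the proteases MMP3 and MMP10, SERPINB2, an inhibitor of plasminogen activators, and PLAU, urokinase. MMP3 had 107, 107 and 114 CPM in vector/4OHT and 161, 148 and 141 CPM in shXPO7_3/4OHT (0.46, edgeR adjusted p = 0.0751 without and 0.0291 with the offset). MMP10 had 8.31, 7.97 and 7.42 CPM against 11.6, 11.8 and 10.97 CPM (0.53, adjusted p = 0.197 and 0.018). In both, every knockdown library was above every vector library. With the offset 2 were lower, ICAM1, a leukocyte adhesion molecule (-0.25), and ANGPTL4, an inhibitor of lipoprotein lipase (-0.30). With the offset and without library T, 2 of the 39 were called, MMP3 not among them (adjusted p = 0.0894). The list's median was 0.0224 without library B of vector/4OHT. The cytokines did not differ detectably. IL1A had 32.4, 30.1 and 29.6 CPM against 21.2, 31.1 and 29.3 CPM, with T alone low (-0.17, 95% confidence interval -0.56 to 0.22). IL1B was at 137 ± 0.927 and 136 ± 5.46 CPM (SD, n = 3), and CXCL8, interleukin 8, was at 457 ± 33.6 and 419.8 ± 60.5 CPM (SD, n = 3), -0.12 with an interval from -0.41 to 0.17. IL6 had 8.34, 9.39 and 8.65 CPM against 8.12, 6.79 and 8.41 CPM, -0.17 with an interval from -0.40 to 0.057.

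TCF3, the E protein that the study follows, was measured here as a transcript. It had 82.9, 85.3 and 84.8 CPM in vector/4OHT and 92.4, 79.0 and 87.4 CPM in shXPO7_3/4OHT, overlapping between the groups (log2 fold change 0.033, 95% confidence interval -0.17 to 0.23). Its paralogs TCF4 (0.20, interval -0.25 to 0.65) and TCF12 (0.067, interval -0.33 to 0.46) spread widely among the knockdown libraries, with T lowest in both, at 46.1 CPM of TCF4 and 131 CPM of TCF12. The ID proteins sequester E proteins. ID1 and ID3 were at -0.020 and 0.020, ID2 at 0.22 and ID4, which was below 1 CPM in all 6 libraries, at 0.85, and none was called. Of the 13 E protein, ID and related bHLH genes tested 11 were higher, with a median of 0.22 and medians of 0.23, 0.26 and 0.21 in T, A and B. None was called without the offset, with 7 at an unadjusted p under 0.05, all higher, beside 3.54% of all genes. HEYL and HES1 were called higher with the offset, beside 1.26% of all genes. With the offset and without library T, HES1 was the 1 of the 13 called (adjusted p = 0.0196).

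Of the readouts of RAS signalling itself, MAPK output genes lay slightly above the control and HRAS did not differ detectably. HRAS reads, which can come from the transgene or the cells' own gene, were at 1930.0 ± 75.8 CPM in vector/4OHT and 1984 ± 211 CPM in shXPO7_3/4OHT (SD, n = 3), a log2 fold change of 0.040 with an interval from -0.19 to 0.27. Of 16 MAPK output genes 11 were higher, with a median of 0.081 and medians of 0.085, 0.058 and 0.072 in T, A and B. The groups did not overlap in 7 that were higher and 2 that were lower, beside 7.46% and 7.15% of all genes. Without the offset 0 were called, with 4 at an unadjusted p under 0.05, beside 6.41% of all genes. The transcription factors ETV4 and EGR1 and IER3, an immediate early gene, were called with the offset, at 0.25, 0.22 and 0.22 (edgeR adjusted p = 0.0173, 0.0492 and 0.0143). Over all genes 1.99% were called with it. ETV4 had 40.7, 43.0 and 44.4 CPM in vector/4OHT and 58.2, 46.4 and 49.98 CPM in shXPO7_3/4OHT, with T the highest. Without T, 0 of the 16 were called with the offset.

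In matrix and contractile genes the calls came with the offset alone, which called 1.26% of all genes higher and 0.733% lower. Of 25 collagens 16 were higher, with a median of 0.10 that was 0.18, -0.012 and 0.10 in T, A and B and 0.029 without T. COL3A1, of the fibrils of soft tissue, had 1179, 1095 and 1098 CPM in vector/4OHT and 1466, 1354 and 1373 CPM in shXPO7_3/4OHT (0.34 with the offset, edgeR adjusted p = 0.0112). COL5A3 had 111, 105 and 107 CPM against 175, 128 and 141 CPM (0.42, adjusted p = 0.00276), and COL13A1 was called at 0.21. COL3A1 was higher evenly, and COL5A3 most in library T. Of 16 smooth-muscle contractile genes 11 were lower (median -0.025, and -0.12 without T). TAGLN, the actin-binding transgelin, had 419.7, 439 and 459 CPM against 417, 307 and 372 CPM, so that T lay just below the lowest vector library. ACTG2, the γ actin of smooth muscle, had 163, 168 and 178 CPM against 146, 137 and 139 CPM. Both were called with the offset, at -0.29 and -0.28 (adjusted p = 0.0388 and 0.0188). Without library T the offset left 2 of the 25 collagens and 0 of the 16 contractile genes called. At an unadjusted p under 0.05 in edgeR, 7 collagens were higher and 1 lower, beside 3.54% and 2.87% of all genes. Of the contractile genes 0 were higher and 3 lower at that threshold.

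Stress, lipid and immune lists held no calls without the offset. Of 22 genes of ER stress and ATF4, 12 were higher and 10 lower (median 0.0048). TRIB3, SESN2 and VLDLR were called lower with the offset, at -0.23, -0.27 and -0.31, beside 0.733% of all genes. With the offset and without library T, 2 of the 22 were called. At an unadjusted p under 0.05 in edgeR, 5 were lower and 1 higher, beside 2.87% and 3.54% of all genes. SESN2, a stress-induced sestrin, had 38.4, 36.7 and 40.1 CPM in vector/4OHT and 36.2, 30.8 and 31.3 CPM in shXPO7_3/4OHT, with T the highest of the knockdown libraries. TRIB3, a pseudokinase induced by ATF4, had 56.8, 57.4 and 59.2 CPM in vector/4OHT and 58.9, 43.2 and 48.2 CPM in shXPO7_3/4OHT, with T inside the range of the vector and A and B below it. Of 22 genes of cholesterol synthesis 17 were higher (median 0.097). The groups did not overlap in 7, all higher, beside 7.46% of all genes upward. At an unadjusted p under 0.05 in edgeR there were 4, all higher, beside 3.54% of all genes. INSIG1, which holds the SREBP complex in the endoplasmic reticulum, was the 1 called with the offset, which called 1.26% of all genes higher. INSIG1 had 105, 106 and 109 CPM against 130.2, 132 and 129 CPM, even in all libraries. Of 32 interferon-stimulated genes 23 were higher (median 0.12), with medians of -0.032 in T, 0.17 in A and 0.14 in B, and edgeR called 0 in either fit, with 0 at an unadjusted p under 0.05. Of 18 NF-κB feedback genes 7 were higher (median -0.039) and 0 called, with 2 at an unadjusted p under 0.05. Ribosomal protein genes were higher in 30 of 32 cases by a median of 0.056. The list's median was 0.17 in library T, 0.0048 in A and -0.017 in B, and 11 of 32 were higher without T (median -0.0068). The 13 mitochondrial-genome transcripts (median -0.013) and 13 small-RNA pathway genes (median 0.049) held 0 calls by edgeR, as did the ribosomal genes, with 2, 0 and 0 at an unadjusted p under 0.05.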

How the data were processed

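RNA was purified with a Qiagen kit and libraries were made with a stranded Illumina mRNA kit. Per the labels, the authors deposited raw read counts per gene for all 12 libraries in 1 table. Among the tools listed in the submitters' processing notes are featureCounts 1.18.0, TopHat2 2.0.11 and CASAVA 1.8.4, with hg19 (GRCh37) as the build. No source used here gives the annotation, how strand was set or how multi-mapping reads were treated, so genes that overlap or have near copies are uncertain. The 92 ERCC rows held 0 reads and were left out, leaving 62069 genes.

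Counts were tested as deposited with edgeR 4.0.16 (R 4.3.3): TMM factors, filterByExpr, a quasi-likelihood fit of the 4 groups over all 12 libraries without covariates, and Benjamini-Hochberg adjustment over 15284 genes. In addition a spline on GC content and length (5 degrees of freedom) was removed from each library as an offset. Alternatives used limma 3.58.1, DESeq2 1.42.0 and the settings described at the end. Libraries held 28534141 to 60397769 reads, and intervals are at 95%. The fits were tested on simulated data first. GC content, length and gene positions came from GENCODE release 29 (GRCh38), joined by gene ID, and promoters from RefSeq (GRCh38.p14).

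Genes and the lists were chosen with earlier results of these data known. Named genes were those called (at most 30), up to 3 members of each list with the greatest fold change among those with a mean log2 CPM of at least 2, and fixed genes of the study's subject. Not every gene so named is described above. Genes called with the offset alone were added after their values were seen. The sequence of the shRNA was not analysed here, and 1 gene with its targets is not reported here.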

Additional observations from a re-analysis of the deposited data

Results flagged for a closer look

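Both shRNAs were set against each other under 4OHT, a contrast that does not use the vector libraries, and 2 genes differed in edgeR's quasi-likelihood test. XPO7 was lower with shXPO7_3 than with shXPO7_X5 by -0.916 on the log2 scale (adjusted p = 0.000387), with 26.4 to 28.7 CPM against 50.8 to 54.0 CPM. PTGS2, the prostaglandin synthase COX-2, was higher by 0.947 (adjusted p = 0.0246), with 42.1, 48.3 and 48.6 CPM for shXPO7_3 and 23.6, 28.1 and 20.4 CPM for shXPO7_X5. In vector/4OHT PTGS2 was at 44.6, 46.2 and 37.8 CPM, inside or just below the range of shXPO7_3.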

How the results depend on the processing

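The number of genes called, 19, depended on the setting. It was 8 with upper-quartile factors, 30 without a filter beyond 1 count, 2 in a fit to the 6 libraries only, 88 with DESeq2, 685 with limma voom and quality weights (51.5% higher, against 73.7%), 304 with the GC content and length offset (63.2% higher), and 2 at a log2 fold change of at least 1. RLE factors gave 17 (82.4% higher). With any 1 of the 6 libraries left out it was 1, XPO7. With the offset as well, chosen after seeing the data, it was 131, 99 and 101 without T, A and B of vector/4OHT and 147, 130 and 148 without T, A and B of shXPO7_3/4OHT. The cause was not tested. In all of these fits the 19 kept their sign.

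Deviations from the group means, without the offset, correlated between the 2 groups at 0.061, -0.015 and -0.017 for T, A and B. For unlike letters the values ran from -0.24 to 0.25. They carry the GC trends of the libraries, so this check cannot decide whether a letter marks a shared batch. With the replicate block 13 genes were called, 11 of them among the 19, and with the block and the offset 315.

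Genes that were never called changed sign as follows. With limma voom BIRC3 was at 0.056, HMGA2 at 0.061, HRAS at -0.020 and IL1B at 0.016. The IL1B log2 fold change was 0.00587 with RLE factors, 0.00070 with the offset and 0.00596 with DESeq2. HAT1 was at -0.022 with the replicate block. Leaving out 1 library gave -0.33 to 0.064 for BIRC3, -0.030 to 0.25 for KRT8, -0.036 to 0.12 for KRT18, -0.024 to 0.092 for TCF3, -0.011 to 0.20 for TCF12, -0.056 to 0.024 for ID1, -0.034 to 0.098 for ID3, -0.024 to 0.12 for HMGA1, -0.086 to 0.073 for HMGA2, -0.029 to 0.018 for IL1B, -0.055 to 0.099 for HRAS and -0.14 to 0.25 for HAT1. The leukocyte list gave no value under the filter of 1 CPM in 6 libraries. With 1 library left out the median of the list was 0.0675 to 0.222 for interferon-stimulated genes, 0.0293 to 0.155 for collagens, 0.0540 to 0.0913 for MAPK output, -0.0660 to 0.0038 for NF-κB feedback, -0.116 to 0.0015 for smooth-muscle contractile genes, -0.0613 to 0.0080 for ER stress and ATF4 and 0.0239 to 0.0546 for small-RNA pathway genes, with library T, A or B of shXPO7_3/4OHT left out for each limit except the highest for interferon-stimulated genes, where it was A of vector/4OHT. Intervals rest on the spread pooled over all 12 libraries.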
